A study of Mus musculus with 2 samples.

Results

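The 10 genes described here are the G1 cyclins, kinases and inhibitors of the mouse macrophage-like line RAW 264.7. They comprise 7 drivers of entry into S phase (Ccnd1, Ccnd2, Ccnd3, Ccne1, Cdk2, Cdk4 and Cdk6) and 3 inhibitors (Cdkn1a, Cdkn1b and Rb1). Their probes were found by gene name among the non-control probes of an Agilent whole mouse genome array, and these 10 genes were 10 of 28785 gene names and accessions on it. They are covered by 19 of 41174 probes. All 10 genes had at least 1 probe well above background on both arrays, as 16 of the 19 probes did.

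In G1 the D-type cyclins Ccnd1, Ccnd2 and Ccnd3 activate the kinases Cdk4 and Cdk6, which begin to phosphorylate the retinoblastoma protein, the product of Rb1. Cyclin E, encoded here by Ccne1, then activates Cdk2, retinoblastoma protein is phosphorylated further, and the E2F transcription factors it held back switch on genes of DNA synthesis. Cdkn1a and Cdkn1b encode p21 and p27, which bind cyclin-kinase complexes and block Cdk2. Osteoclast precursors such as these divide before they leave the cell cycle and fuse.

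The study compared 1 sample labelled control with 1 sample labelled RCCS, a rotating culture vessel (rotary cell culture system) that models microgravity. By the labels, RAW 264.7 cells were placed in the rotary vessel for 24 h in medium with serum, RANKL, the cytokine that drives osteoclast formation, was given at 80 ng/ml for 24 h, and controls were held at ground level alongside. The protocol text is identical for both samples and does not settle whether the control cells received RANKL, so RANKL and rotation cannot be told apart if they did not. Nor does it settle whether RANKL was given during the 24 h of rotation or after it. The labels give 1 sample and 1 array per condition, so conditions cannot be tested against each other, no p-value is given and every difference lacks replicates.

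Signals are processed intensities in the scanner's linear units, with the local background subtracted. The log2 ratio is RCCS minus control after each array was divided by its own 75th percentile (849 and 966, a factor of 1.14), so an unscaled signal has to be 1.14-fold higher on the RCCS array to give a ratio of 0. The error given is the spot error that the scanner software assigns, with a 95% interval where stated. It covers the spot and not cultures, RNA extraction or labelling. The share of probes well above background was 57.6% (control) and 60.6% (RCCS). Over 16024 measured genes the median log2 ratio was -0.13, with 622 genes higher by 2-fold or more and 605 lower by as much (50.7% of these higher). That balance depends on the scaling: the higher share was 82.0% with spike-in scaling, 66.7% with the 75th percentile of measured probes, 64.0% with loess scaling and 62.7% with normexp and quantile normalization. All 9 macrophage markers checked were measured, with a median log2 ratio of 0.11. Of these, Itgam was far higher in RCCS, with probes at 1.98 and 2.02, and Spi1 was lower at -0.72. Among markers of stromal, lymphoid, epithelial and endothelial cells, 7 of 15 on the array were measured, none with a signal above 149 (Cd3e, control), and Pdgfra, Cd8a, Ms4a1, Cdh5 and Kdr were below that call on both arrays. A lower signal in such a bulk sample can mean fewer cells expressing a gene or less RNA per cell, which cannot be told apart.

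Since 6 of the drivers were lower in RCCS, the 250 bases before their RefSeq start sites (GRCm38.p6) were read for promoter motifs. The table used holds 9 windows for 7 of the 10 genes, all but Ccnd1, Ccnd2 and Rb1. Shown are Cdk4 and Cdk6 with the E-box CACGTG in capitals, the word bound by MYC-MAX dimers and related factors, Cdk2 with its E2F word in capitals, and the upstream start of Cdkn1a with p53 half-sites in capitals. Each is written 5′ to 3′ on the gene's strand and ends at the base before the start.
Cdk4 (chr10:127063285-127063534, plus strand): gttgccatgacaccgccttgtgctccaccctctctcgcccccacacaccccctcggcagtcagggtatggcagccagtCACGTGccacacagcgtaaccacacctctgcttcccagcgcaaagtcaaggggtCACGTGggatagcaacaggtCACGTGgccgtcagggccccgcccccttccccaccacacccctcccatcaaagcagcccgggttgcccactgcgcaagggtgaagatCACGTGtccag
Cdk6 (chr5:3343643-3343892, plus strand): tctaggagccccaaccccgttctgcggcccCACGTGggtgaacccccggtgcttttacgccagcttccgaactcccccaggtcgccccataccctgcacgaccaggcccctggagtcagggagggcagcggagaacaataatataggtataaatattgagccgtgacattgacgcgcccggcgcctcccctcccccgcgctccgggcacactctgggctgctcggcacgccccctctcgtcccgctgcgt
Cdk2 (chr10:128705052-128705301, minus strand): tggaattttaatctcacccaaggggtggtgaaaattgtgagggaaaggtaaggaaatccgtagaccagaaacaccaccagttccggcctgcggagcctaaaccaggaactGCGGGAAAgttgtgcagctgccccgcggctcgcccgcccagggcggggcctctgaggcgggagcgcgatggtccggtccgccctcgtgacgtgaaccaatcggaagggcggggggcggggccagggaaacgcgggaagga
Cdkn1a (chr17:29090729-29090978, plus strand): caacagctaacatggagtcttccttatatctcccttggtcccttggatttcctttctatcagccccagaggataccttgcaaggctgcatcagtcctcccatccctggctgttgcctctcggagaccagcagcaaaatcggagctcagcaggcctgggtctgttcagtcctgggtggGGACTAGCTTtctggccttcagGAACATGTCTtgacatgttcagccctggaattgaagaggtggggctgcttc

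CACGTG, which reads the same on both strands, occurred 4 times before the start of Cdk4, beginning at positions -172, -118, -98 and -11, and once before that of Cdk6, at -220. It was absent from the windows of the lower drivers Ccnd3, Ccne1 and Cdk2 and from those of Cdkn1a and Cdkn1b. Of 32851 windows of this length in the table, 6.02% held it at least once and 7 windows (0.0213%) held it 4 or more times. The E2F words searched were TTTCGCGC, TTTGGCGC, TTTCCCGC and TTTGCCGC on both strands. They were present in 1.86% of windows and, among the members, once in Cdk2 at -140. The GC box GGGCGG, present in 32.7% of windows on either strand, occurred 5 times before Cdk2 and 4 times before Ccne1. Of all windows 4.09% held it 4 or more times. It also occurred 1 or 2 times in the windows of Ccnd3, Cdk4, Cdkn1b and the downstream start of Cdkn1a, and not in that of Cdk6. Half-sites for p53 were added after the sequences had been seen. The upstream start of Cdkn1a held 2, at -73 and -51, and 7.13% of windows held at least 1. CCAAT (33.9% of windows) was found in 1 window of Ccnd3, in Cdk2 and 2 times in Cdkn1b, TATAAA (12.4%) in Cdk6, and TTTGAA (5252 windows) in none of the members' windows, each on either strand. These matches describe letters in the genome; binding was not measured.

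The drivers other than Ccnd2 were lower on the RCCS array, and the 3 inhibitors were near or above 0. Among inhibitors outside the 10 genes, Cdkn2c (-0.29) and Cdkn2d (-0.58) were below 0, as described further on. Of the 7 drivers, 6 had log2 ratios between -1.44 and -0.63, each at least 1.5-fold lower, and Ccnd2 stood at 0.37. Over all measured genes 14.9% were at least 1.5-fold lower and 61.8% were below 0. At 2-fold, 1 member (Cdk6) was lower, beside 3.78% of all genes, and 0 of the 10 were higher, beside 3.88%. None of the 10 was 1.5-fold higher either, beside 9.74% of all genes, but Rb1 was, at 0.66, on the brightest probe of each gene or with a signal minimum of 100. The median of the drivers was -0.80 and that of the 3 inhibitors 0.21, against -0.13 for all genes. The number of drivers at least 1.5-fold lower was 4 with quantile or loess scaling, with the 75th percentile of measured probes or with normexp and quantile normalization, and 1 (Cdk6) with spike-in scaling, where Ccnd2 and Rb1 were each 1.5-fold higher at 0.68. In all 13 other settings these 6 genes stayed below 0.

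**Figure D1:**
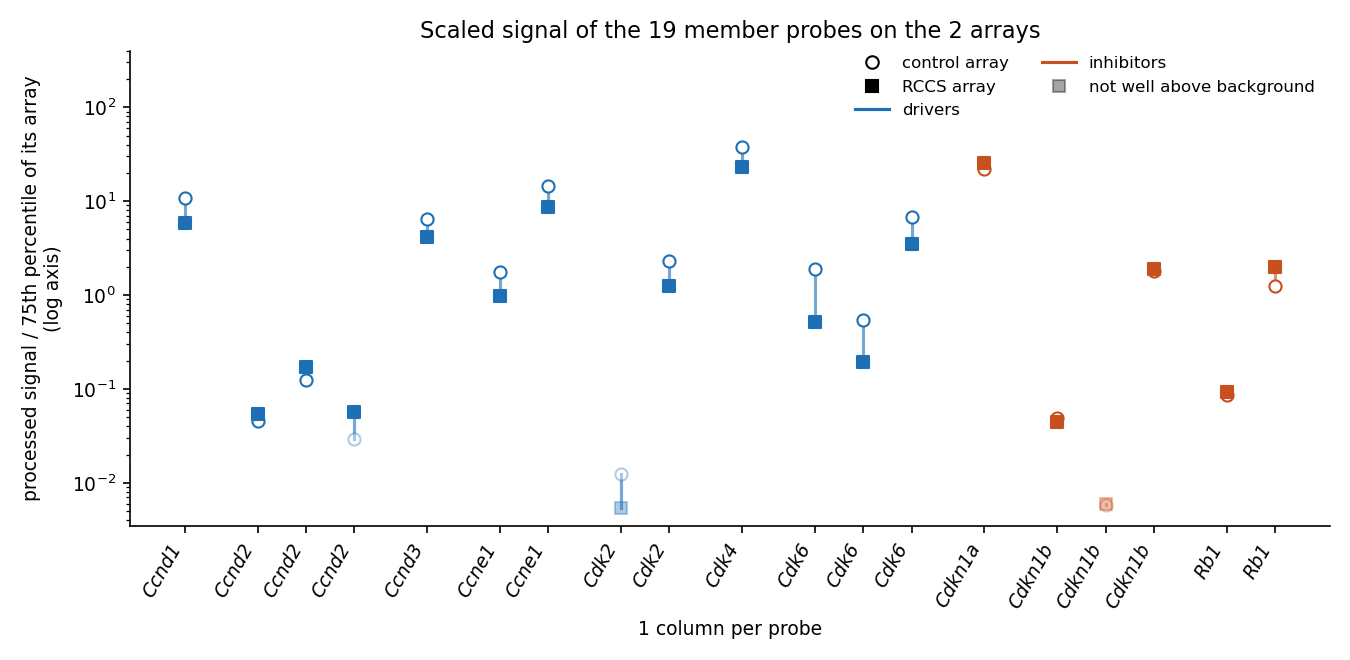
Processed signal of each of the 19 member probes divided by the 75th percentile of its array (log axis), on the control array (open circles) and the RCCS array (squares), drivers in blue and inhibitors in orange, with pale symbols where the probe was not well above background. Every measured probe of Ccnd1, Ccnd3, Ccne1, Cdk2, Cdk4 and Cdk6 has its square below its circle; heights of different probes are not comparable, since probes bind with different strength.

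Ccnd1, which encodes cyclin D1, was measured by 1 probe printed 10 times. Its spots gave 8536 to 9847 in control (median 9222) and 5391 to 5988 in RCCS, where the median was 5786. The spots of the arrays did not overlap, and all 10 had a log2 ratio below 0. The mean log2 ratio was -0.87 (1.82-fold lower), with an SD of 0.041 between the 10 spots, from -0.96 to -0.82. This is the best measured of the lower drivers at the level of spots.

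Ccnd3, which encodes cyclin D3, had a signal of 5457 (control) and 4008 (RCCS) on its 1 probe. Its log2 ratio was -0.63 (95% interval of the spot error -1.03 to -0.23), the nearest to 0 of the 6 lower drivers. With spike-in scaling it was at -0.33.

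Ccnd2, which encodes cyclin D2, was the driver above 0, and it was dim on every probe. Its brightest probe had a signal of 105 (control) and 165 (RCCS), a log2 ratio of 0.48 (95% interval 0.03 to 0.92). A second gave 38.5 and 52.7 and a ratio of 0.27 (-0.40 to 0.93). The third passed the background call only in RCCS, at 55.3 against 25.04. Its bound of 1.94-fold higher is set against its own control signal and makes no allowance for spot error. Signals down to 24.2 (control) and 21.2 (RCCS) earned the background call. All 3 probes were thus higher on the RCCS array as reported, and the interval of the second holds 0. That probe's lowest ratio, 0, came from the authors' deposited table, where dim signals have few digits, and not from a change of scaling. The gene's ratio lay between 0.15 and 0.68 over the 13 other settings. The ratio of Ccnd2 to Ccnd1 was 2.36-fold higher on the RCCS array than on the control array.

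Ccne1, which encodes cyclin E1, was lower by about the same amount on both of its probes. The brighter probe went from 12288 on the control array to 8298 on the RCCS array, a log2 ratio of -0.75 (95% interval -1.15 to -0.35). The dimmer one went from 1486 to 941, a ratio of -0.84 (-1.24 to -0.44). Both have the same start position in the array's annotation, so they are not independent readings of different parts of the transcript. Ccne2, the gene of the other E-type cyclin, was at -0.25 over 2 probes.

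Among the kinases, Cdk4, the partner of the D-type cyclins, had a signal of 32048 (control) and 22324 (RCCS). Its single probe gave a log2 ratio of -0.71 (95% interval -1.11 to -0.31). Cdk2, the partner of cyclin E, had 1957 (control) and 1205 (RCCS) on the probe named for transcript variant 1, a log2 ratio of -0.89 (-1.29 to -0.49). The probe named for transcript variant 2 was below the background call on both arrays (10.6 and 5.24) and gives no ratio.

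Cdk6, the other kinase of the D-type cyclins, had the lowest log2 ratio of the 10 genes, -1.44 as the mean of 3 probes (2.71-fold lower), and 1.25% of all measured genes were lower still. The probes were not alike. One went from 1604 on the control array to 502 on the RCCS array, a ratio of -1.86 (95% interval -2.26 to -1.46), and another from 466 to 186, a ratio of -1.51 (-1.91 to -1.10). Both are annotated to the Cdk6 mRNA. The brightest went from 5747 to 3375, a ratio of -0.95 (-1.35 to -0.55). That probe is annotated to a thymus cDNA clone of unclassified product and lies 7618 bases from the nearer of the others in the array's own coordinates (build not given in the sources used here). All 3 probes were lower on the RCCS array. Taken on its brightest probe alone, Cdk6 was 1.94-fold lower and no member was 2-fold lower. The ratio of Cdk4 to Cdk6 was 1.66-fold higher on the RCCS array.

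**Figure D2:**
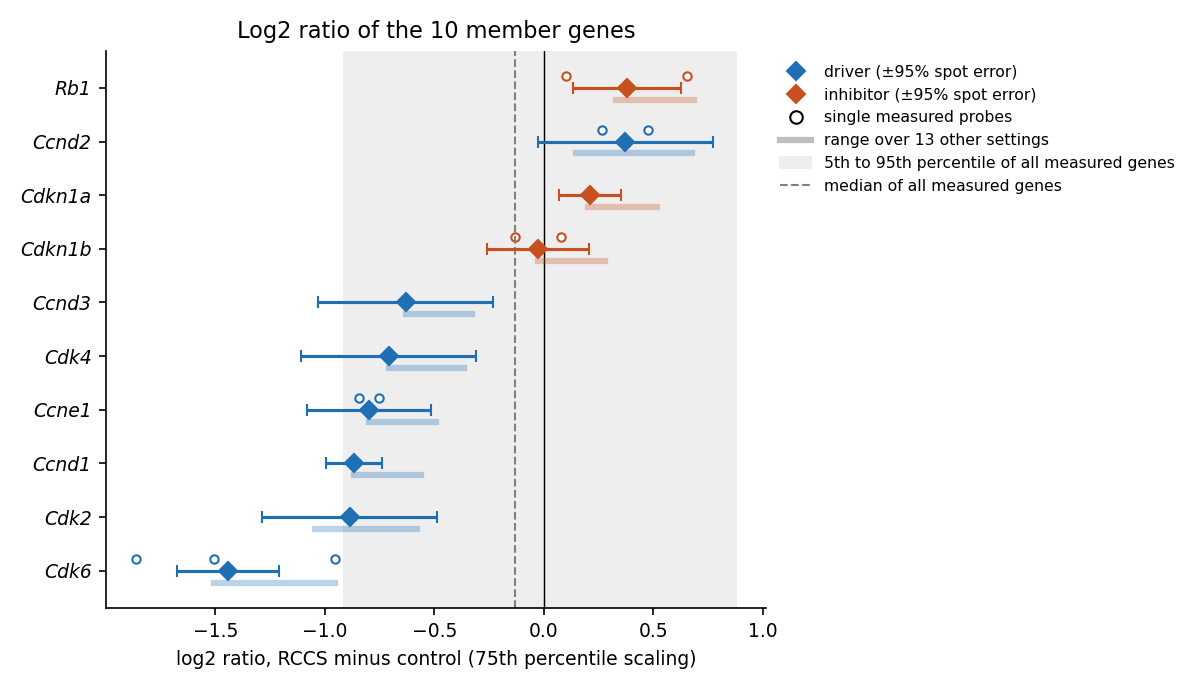
Log2 ratio, RCCS minus control, of the 10 genes: diamonds with bars for the 95% spot error (drivers blue, inhibitors orange), open circles for single probes where a gene has over 1 measured probe, pale bars for the range over 13 other settings, and grey for the 5th to 95th percentile (-0.91 to 0.88) and median of all measured genes. Cdk6 at -1.44 lies outside the grey range, 5 drivers from -0.89 to -0.63 lie in its lower part, and Ccnd2 stands with the inhibitors.

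In order, the lower drivers were Cdk6 (-1.44), Cdk2 (-0.89), Ccnd1 (-0.87), Ccne1 (-0.80), Cdk4 (-0.71) and Ccnd3 (-0.63). From Cdk2 to Ccnd3 the intervals of the spot error overlap, so no order among these 5 is resolved. The intervals of both mRNA-annotated Cdk6 probes lie below that of Ccnd1 (-0.99 to -0.74), and that of the third probe overlaps it.

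The inhibitors were near or above 0. Cdkn1a, which encodes p21, was measured by a probe printed 10 times, of which 2 spots were left out as outliers. The other 8 gave 17823 to 19366 in control (median 18692) and 24074 to 25087 in RCCS, where the median was 24508. The spots did not overlap, before or after scaling, and all 8 had a ratio above 0. The mean log2 ratio was 0.21 (1.16-fold higher), with an SD of 0.019 between spots. The ratio was between 0.20 and 0.52 over the 13 other settings.

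Cdkn1b, which encodes p27, differed little between the arrays. The probe annotated to a thymus cDNA clone had a signal of 1528 (control) and 1838 (RCCS), a log2 ratio of 0.08 (95% interval -0.32 to 0.48). The probe annotated to the Cdkn1b mRNA, printed 10 times, was dim: 8 spots gave 37.7 to 46.3 in control (median 42.4) and 33.97 to 51.9 in RCCS, where the median was 42.1. Its ratio was -0.13 with an SD of 0.169 between spots, and the spots of the arrays overlapped. The third probe was below the background call on both arrays (4.88 and 5.78). The gene's mean, -0.03, was above 0 in 10 of the 13 other settings, so Cdkn1b has no direction here.

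Rb1, which encodes the retinoblastoma protein, had a log2 ratio of 0.38 as the mean of 2 probes that differed, close to that of Ccnd2 (0.37). The probe printed 10 times gave 999 to 1116 in control (median 1072) and 1799 to 1990 in RCCS, where the median was 1921. Its spots did not overlap and all 10 were above 0. Its log2 ratio was 0.66 (1.58-fold higher), with an SD of 0.040 between spots. The other probe was dim, with 74.0 (control) and 90.4 (RCCS), and its ratio was 0.10 (95% interval -0.37 to 0.58). These probes lie 66953 bases apart in the array's coordinates, so they read distant parts of the gene. Of its relatives, Rbl2, which encodes the pocket protein p130, was at 0.39 over 2 probes, and Rbl1, which encodes p107, was at -0.43.

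**Figure D3:**
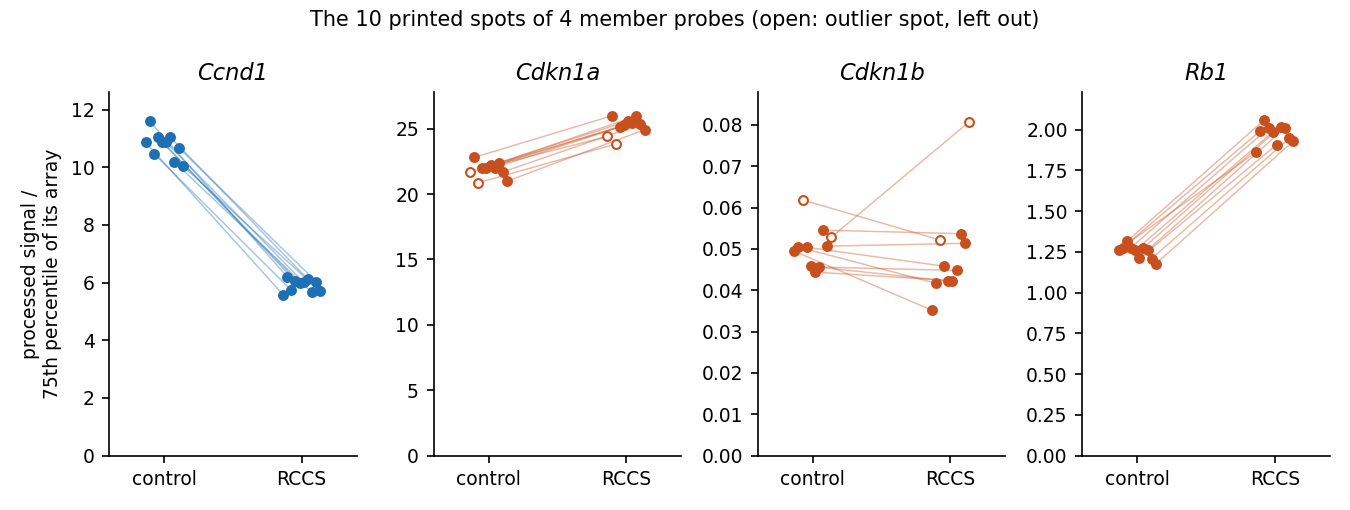
Processed signal divided by the array's 75th percentile for each of the 10 printed spots of 4 member probes, with lines joining the same position on both arrays and open symbols for outlier spots left out. Spots of Ccnd1 are all lower and those of Cdkn1a and Rb1 all higher on the RCCS array, and those of the dim Cdkn1b probe overlap; spots are repeats on 1 array, not cultures.

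Set against each other, the drivers' median lay 1.01 below the inhibitors' median on the log2 scale, 2.01-fold. A single scaling factor per array cannot alter this difference, and it lay between -1.09 and -0.96 in the 13 other settings. In 19 of the 21 pairs of 1 driver and 1 inhibitor the inhibitor had the higher log2 ratio, and in 11 by at least 2-fold. Of the 19, Rb1 over Ccnd2 (0.0071) is far within its error of 0.239. The 2 exceptions pair Ccnd2 with Cdkn1a (-0.16) and Cdkn1b (-0.40). Without Ccnd2 the inhibitor was higher in 18 of 18 pairs, by 0.61 (Cdkn1b over Ccnd3) to 1.82 (Rb1 over Cdk6). Ccnd2 was set aside once its value was known, so 18 of 18 follows from the gene ratios above and adds no support. These pairs share genes and arrays and are a description of the 2 arrays. The genes were chosen with earlier results of these data known.

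Most other genes of the G1 pathway were lower too, with a median nearer 0. Of 28 listed, 24 were measured, 21 of them below 0 (61.8% of all genes were), with a median of -0.44. At least 1.5-fold lower were 8 (33.3%, beside 14.9% of all genes). At 2-fold 1 was lower, Skp2 at -1.29, which is 4.17% of the list and near the 3.78% of all genes. Skp2 encodes the ubiquitin ligase subunit that marks p27 for destruction, and both of its probes were low (-1.35 and -1.23). After it came Cdc25a, the phosphatase that activates Cdk2, at -0.91 (1184 (control) and 718 (RCCS) on its brighter probe), and Ccna2, the S-phase cyclin, at -0.90 (12641 and 7715). Cks1b, which works with Skp2, was at -0.81 and E2f1, a transcription factor held by retinoblastoma protein, at -0.81 over 2 probes. E2f8 was at -0.75. The members above 0 were Rbl2, Fbxw7, which encodes the ubiquitin ligase subunit that recognises cyclin E, at 0.30, and Mnat1, at 0.03 on the 1 measured of its 5 probes. The INK4 inhibitors, which bind Cdk4 and Cdk6, were not higher. Cdkn2c was at -0.29 and Cdkn2d at -0.58, both below 0, as were 61.8% of all genes. Cdkn2a and Cdkn2b were below the background call on both arrays. Cdkn1c, the third gene of the p21 and p27 family, was dim, at 28.1 (control) and 34.4 (RCCS).

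All 16 measured genes of S phase that E2F factors switch on were at least 1.5-fold lower, 5 of them by 2-fold or more (31.3%, beside 3.78% of all genes), and their median was -0.91. These 5 were Tk1, the thymidine kinase, at -1.25 (23302 (control) and 11105 (RCCS)), the helicase subunits Mcm7 at -1.20, Mcm6 at -1.11 and Mcm3 at -1.02, and the replication factor Cdc45 at -1.09. The highest of the list was Tyms at -0.68. The drivers' median, -0.80, lies between that of the other G1 genes and that of these targets. The count of E2F targets at least 2-fold lower fell to 0 with spike-in, quantile or loess scaling, and the median was then between -0.66 and -0.61.

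Genes known to act on transcription or turnover of the members went both ways, with a median of 0.05 over 16 measured of 18 listed. Myc encodes the partner of Max in the dimer that binds the E-box shown above for Cdk4 and Cdk6. Its brightest probe went from 9691 to 956, and its log2 ratio was -3.50 over 3 probes. Max was at -0.47. At 2-fold, 2 of the 16 were lower and 4 were higher, beside 3.78% and 3.88% of all genes. The other gene at least 2-fold lower was Klf4, an activator of Cdkn1a, at -1.02. At least 2-fold higher were Id1 at 3.78, Id2 at 1.94 and Id3 at 1.34, whose products block bHLH transcription factors, and Atf3, a stress-induced factor, at 1.35. Trp53, the gene of p53, was at -0.64, and Mdm2, a p53 target like Cdkn1a, at 0.74 with probes at 0.54 and 0.93. Also under 2-fold were Foxo4 at -0.94, with dim signals of 61.6 (control) and 36.5 (RCCS), Smad3 at -0.62 and Klf6 at 0.43. Btg2 was at 0.21 over 3 probes, which ranged from 0.00 to 0.52. The part of these genes in the levels of the drivers and inhibitors was not tested.

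**Figure D4:**
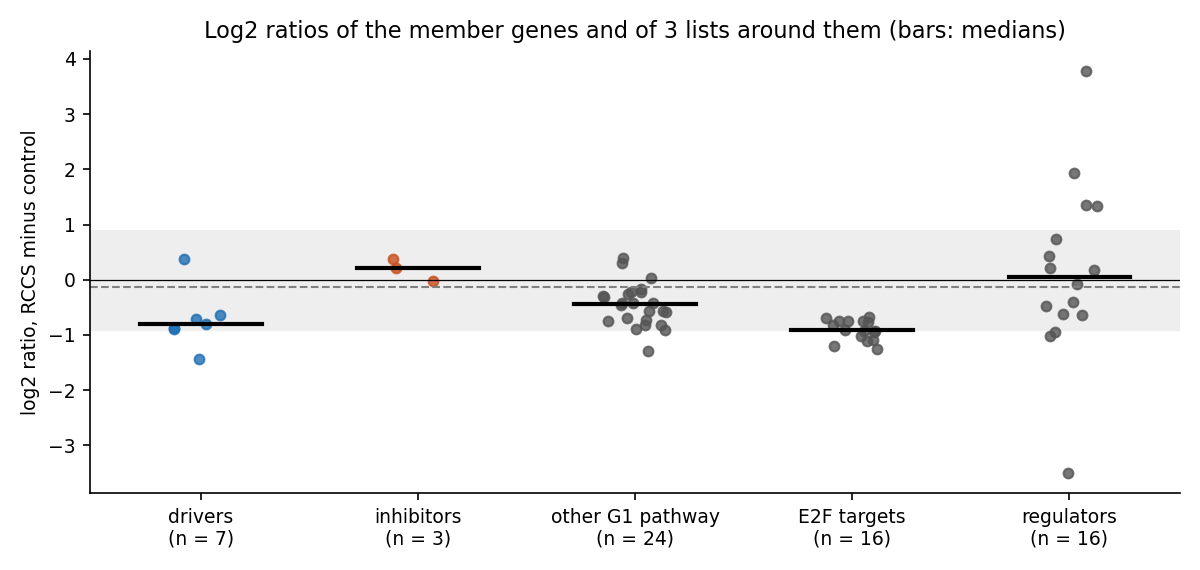
Log2 ratio, RCCS minus control, of each measured gene (points) with list medians (black bars) for the drivers, the inhibitors, 24 other G1 pathway genes, 16 E2F targets and 16 regulators; grey marks the 5th to 95th percentile and the dashed line the median of all measured genes. The E2F targets lie from -1.25 to -0.68 with a median of -0.91, next to the drivers' median of -0.80, and the regulators spread from -3.50 to 3.78.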

How the data were processed

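RNA of 1 control and 1 RCCS sample was measured on 2 arrays of 1 slide in 1 colour, per the file headers. The deposited spot intensities were made by Agilent Feature Extraction 9.5.3.1, with background subtracted and surface trend removed and no scaling between arrays, per the file headers. The ratio table deposited by the authors, scaling unstated, matches the processed signal divided by 849 and 964, and served as an alternative. The other columns used hold the error of the processed signal, 0 or 1 calls of the software and, for normexp, the mean signal and the local background median.

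Outlier spots were left out (0 spots were saturated), spots of a probe were averaged, and the log2 signal was centred on the 75th percentile of the 41174 non-control probes of its array and differenced, RCCS minus control. A probe was measured where at least 50% of its spots were well above background on both arrays. A gene took the mean of its measured probes. Members were found by the file's gene name; of all probes, 22951 matched a RefSeq symbol of GRCm38.p6 by accession, and the other 18223 kept the file's name. A bound sets a signal against the higher of the lowest well-above-background signal of the other array and the probe's own signal there. Repeated probes had a median SD of log2 ratios of 0.039 over 106 bright probes and 0.26 over 45 probes with a signal under 100 on either array.

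With 1 array per group there is no test; the number of arrays limits the precision. All 10 members are named with every probe, and from each other list every gene past 2-fold plus up to 6 with the largest log2 ratio. Genes named beyond these were picked once their values were known, as was the p53 motif. Such genes are some INK4, pocket protein, p53 and F-box genes, Ccne2, Cdkn1c, Mnat1, Tyms and Btg2. The members and lists were chosen with earlier results of these data known. The alternatives covered scaling, normexp (offset 50, limma 3.58.1), the deposited table, the filter on dim probes, the rule for probes of a gene, outlier spots and thresholds of 1.5-fold and 3-fold. The calculation was tested on simulated data.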

Additional observations from a re-analysis of the deposited data

How the results depend on the processing

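The 13 settings left the drivers' median 0.96 to 1.09 below the inhibitors' on the log2 scale, a move smaller than the spot error, and 0 members became 2-fold higher in any. The count of members at least 2-fold lower, 1 as reported, was 2 without a filter on dim probes, where a Cdk2 probe below background enters, 0 on the brightest probe of each gene, 6 at 1.5-fold and 0 at 3-fold. In some settings single members moved outside the 95% interval of their spot error. These were Ccnd1 in 5 settings, Cdkn1a in 4, Rb1 in 3, Cdk6 in 2, and Ccne1 and Cdkn1b in 1 each. The median of the other G1 genes, -0.44 as reported, was -0.30 with the 75th percentile of measured probes, -0.14 with spike-in scaling, -0.37 with loess scaling and -0.37 with normexp and quantile normalization. Its count of 2-fold lower genes, 1, was 0 with spike-in scaling, 2 without the filter, 8 at 1.5-fold and 0 at 3-fold. The E2F target median of -0.91 was -0.78 with the 75th percentile of measured probes, -0.61 with spike-in scaling, -0.66 with quantile normalization, -0.64 with loess scaling and -0.66 with normexp and quantile normalization. Its count of 5 was 2 with the 75th percentile of measured probes, 0 with spike-in, quantile or loess scaling or normexp and quantile normalization, 16 at 1.5-fold and 0 at 3-fold. Of the regulators, Klf4 came under 2-fold in those 5 settings, so that 1 (Myc) in place of 2 was lower. At 1.5-fold 5 regulators were lower, beside 14.9% of all genes. At 3-fold 1 was lower and 2 were higher in place of 4, and the share of all genes at 3-fold was not counted. The regulators' median of 0.05 was 0.36 with spike-in scaling, 0.19 with the 75th percentile of measured probes, 0.18 with a signal minimum of 100, 0.15 with loess scaling and -0.06 without the filter. The median of all genes moved by 0.31 with spike-in scaling, 0.14 with the 75th percentile of measured probes, 0.13 with loess scaling, 0.10 with normexp and quantile normalization, 0.07 with quantile normalization and -0.12 without the filter. The E2F target median moved by more than that in the loess and both quantile settings, and the cause was not tested. The member with the highest log2 ratio, Rb1 as reported, was Cdkn1a in those 3 settings and Ccnd2 without the filter.

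No paired analysis was possible because each group has 1 array. Signals of Ccnd2, the mRNA-annotated Cdkn1b probe and the second Rb1 probe lie near background and limit what can be read from them.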
